A study of Mus musculus with 12 samples.

Results

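The genes described here are 9 transcription factor genes of the AP-1 and EGR families: Fos, Fosb, Fosl2, Jun, Junb, Jund, Egr1, Egr2 and Atf3. They were taken by symbol from the platform annotation of an Illumina Mouse WG-6 v2 BeadChip, on which they have 12 of 45281 probes and are 9 of 19057 named genes. RNA came from alveolar macrophages, the phagocytes of the airspaces, washed out of the lungs of C57Bl/6 mice 60 days after oropharyngeal instillation. The 6 MWCNT mice received 100 µg of multiwalled carbon nanotubes (MWCNT) in 35% surfactant in saline, and 6 control mice received the same vehicle without nanotubes, so both groups carry the surfactant. Each array held 1 mouse. The labels state a macrophage purity above 90% and give neither age nor sex.

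AP-1 is a dimer of leucine zipper proteins. FOS family proteins must pair with a JUN family protein to bind DNA, and ATF3 can pair with JUN proteins as well. EGR proteins are zinc finger factors that bind GC-rich sites. Most of these genes are immediate early genes: their transcripts are short-lived and can be induced within minutes, without new protein synthesis, through MAP kinases, serum response factor and CREB. In macrophages phagocytosis, cytokines and adhesion are known inducers. The series concerns chronic granulomatous inflammation, and the question put to these genes is whether their levels differed between nanotube-exposed and control macrophages at that late time.

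The sequence before the transcription start is shown for Fos, the member that passed the test, and for Junb and Fosb, the pair whose levels moved most closely together from mouse to mouse. The sequences are from RefSeq on GRCm38.p6, 5′ to 3′ on the gene's own strand. For Fosb only 30 bases around its matches are given. Capitals mark TGACG, the core of a CREB/ATF site, on either strand, and in Fosb also GCGNGGGCG, an EGR site.
Fos, chr12:85473640-85473889, plus strand: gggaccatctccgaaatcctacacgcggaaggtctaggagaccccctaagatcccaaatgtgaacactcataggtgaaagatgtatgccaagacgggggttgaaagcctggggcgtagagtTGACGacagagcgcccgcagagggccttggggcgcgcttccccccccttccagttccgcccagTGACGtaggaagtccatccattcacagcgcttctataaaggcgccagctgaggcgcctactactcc
Junb, chr8:84978749-84978998, minus strand: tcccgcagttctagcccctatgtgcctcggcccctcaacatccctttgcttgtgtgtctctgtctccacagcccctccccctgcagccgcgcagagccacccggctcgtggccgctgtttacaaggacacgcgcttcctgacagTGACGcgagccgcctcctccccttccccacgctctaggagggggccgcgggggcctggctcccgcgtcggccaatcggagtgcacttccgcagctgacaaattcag
Fosb, chr7:19310081-19310110, minus strand: gcgggTGACGcaagcGCGGGGGCGggtccc
TGACG occurs in 17.8% of the 32851 RefSeq windows of 250 bases before a start, and GCGNGGGCG in 4.70%. Of the members not shown, Atf3 and some windows of Egr2 also held TGACG, while Fosl2, Jun and Jund did not. Fosl2 held GCGNGGGCG as well. No member window searched held the full CREB/ATF site TGACGTCA or the AP-1 site TGANTCA, and no window is given for Egr1. A match is a description of the letters and not a measured site.

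All 9 genes were measured on all 12 arrays. Levels are log2 intensities after background correction and quantile normalization, and differences are MWCNT minus control with the SE of a limma fit over 13210 features, adjusted by the Benjamini-Hochberg method, with a gene called at an adjusted p under 0.05. Of the 12 probes 10 passed the filter on dim probes. Beside their bright probes, Fosl2 has 2 dim probes and Junb has 1, each detected on 2 or 3 of 12 arrays, with scanner intensities between 133.3 and 207.4. The dim Fosl2 probe that passed the filter differed by 0.00 ± 0.17 (limma adjusted p = 0.993 over 19291 kept probes). In limma's test 1 of the 9 genes was lowered, beside 5.89% of all features, and none was raised, beside 6.98%. These counts are near the background. At an unadjusted p under 0.05 the same fit had 2 of the 9 lower and 1 higher. At the level of single probes 1 of the 10 kept probes was called, that of Fos, while 5.44% of all kept probes were lowered and 6.04% raised. In none of the 9 genes did every MWCNT array lie on 1 side of every control array, which was the case below the controls for 2.81% and above them for 4.07% of all features. The median difference of the 9 genes was -0.11, beside -0.02 over all 13210 features.

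The arrays themselves differed in ways that touch these results. The share of probes detected averaged 39.8% ± 0.592 on MWCNT arrays and 38.5% ± 0.469 on control arrays (SD, n = 6 each; exact permutation test, two-sided p = 0.00433, 0.00866 after adjustment for the 2 measures). The median scanner intensity averaged 169 ± 11.7 on MWCNT arrays and 147 ± 7.60 on control arrays (exact permutation p = 0.0108). The part of these differences in the results was not tested. The Y-linked genes Eif2s3y and Kdm5d were both detected on MWCNT arrays 5 and 6 and not together on any other array, and Xist was at 5.00 and 4.58 there, against at least 10.76 on the other arrays. This signal was thus confined to the MWCNT group and unbalanced between the groups. Fos, Jund, Atf3, Egr1 and Tgfb1 are given with and without these arrays below, and the other results mostly with them only. Without them the difference of Jun was -0.06 ± 0.20 (limma adjusted p = 0.886), against 0.07 with them. Of 14 resident alveolar macrophage markers 9 were measured, and all 9 were detected on all 12 arrays, but Siglecf, which encodes a defining surface lectin of these cells, was not among them because its probe did not pass the filter on dim probes. The resident markers also moved: Cidec fell by 0.58 ± 0.07 (adjusted p = 0.000243) and Krt79 by 0.52 ± 0.08 (adjusted p = 0.000631), while Marco (0.44 ± 0.13, adjusted p = 0.0442) and Car4 (0.36 ± 0.09, adjusted p = 0.0179) were raised and 5 were not called. The Marco call was lost in 13 of 26 alternatives. The summed intensity of the 9 resident markers was 81019 to 88229 on MWCNT arrays and 89190 to 93333 on control arrays, with no overlap. Bright genes weigh most in this sum, and the median difference of the 9 was -0.08. The lower sum is thus not a fall shared by the whole list. Markers of several other cells were raised with MWCNT, beside 6.98% of all features: 7 of 9 measured T and NK cell markers, 2 of 3 B cell markers, 5 of 6 dendritic cell markers, 3 of 4 neutrophil markers and 9 of 10 monocyte-derived macrophage markers. In the remaining lists a single gene was raised: 1 of 2 mast cell and eosinophil markers, 1 of 7 airway and alveolar epithelial markers (median difference 0.14) and 1 of 3 fibroblast and endothelial markers. No control array detected any of the 3 measured B cell markers, nor 1 T and NK cell, 2 dendritic, 1 neutrophil, 3 monocyte-derived, 1 epithelial and 2 fibroblast and endothelial markers. Those genes passed the filter on dim probes through the MWCNT arrays alone, so the counts raised are partly set by the filter. The summed intensity of the monocyte-derived markers was 24783 to 35202 on MWCNT arrays and 14859 to 17145 on control arrays, and that of the neutrophil markers 3773 to 7102 on MWCNT arrays and 2156 to 2951 on control arrays. Most of each sum came from a single bright gene, Gpnmb and S100a8 respectively. The summed intensity of the epithelial markers was 6460 to 26855 on MWCNT arrays and 1672 to 12144 on control arrays. Most of it came from Scgb1a1, a club cell secretory protein gene, which rose by 2.23 ± 0.53 (adjusted p = 0.0135). The other 6 measured epithelial markers were not called. In bulk RNA, fewer cells of a type and less RNA per cell cannot be told apart.

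**Figure D1:**
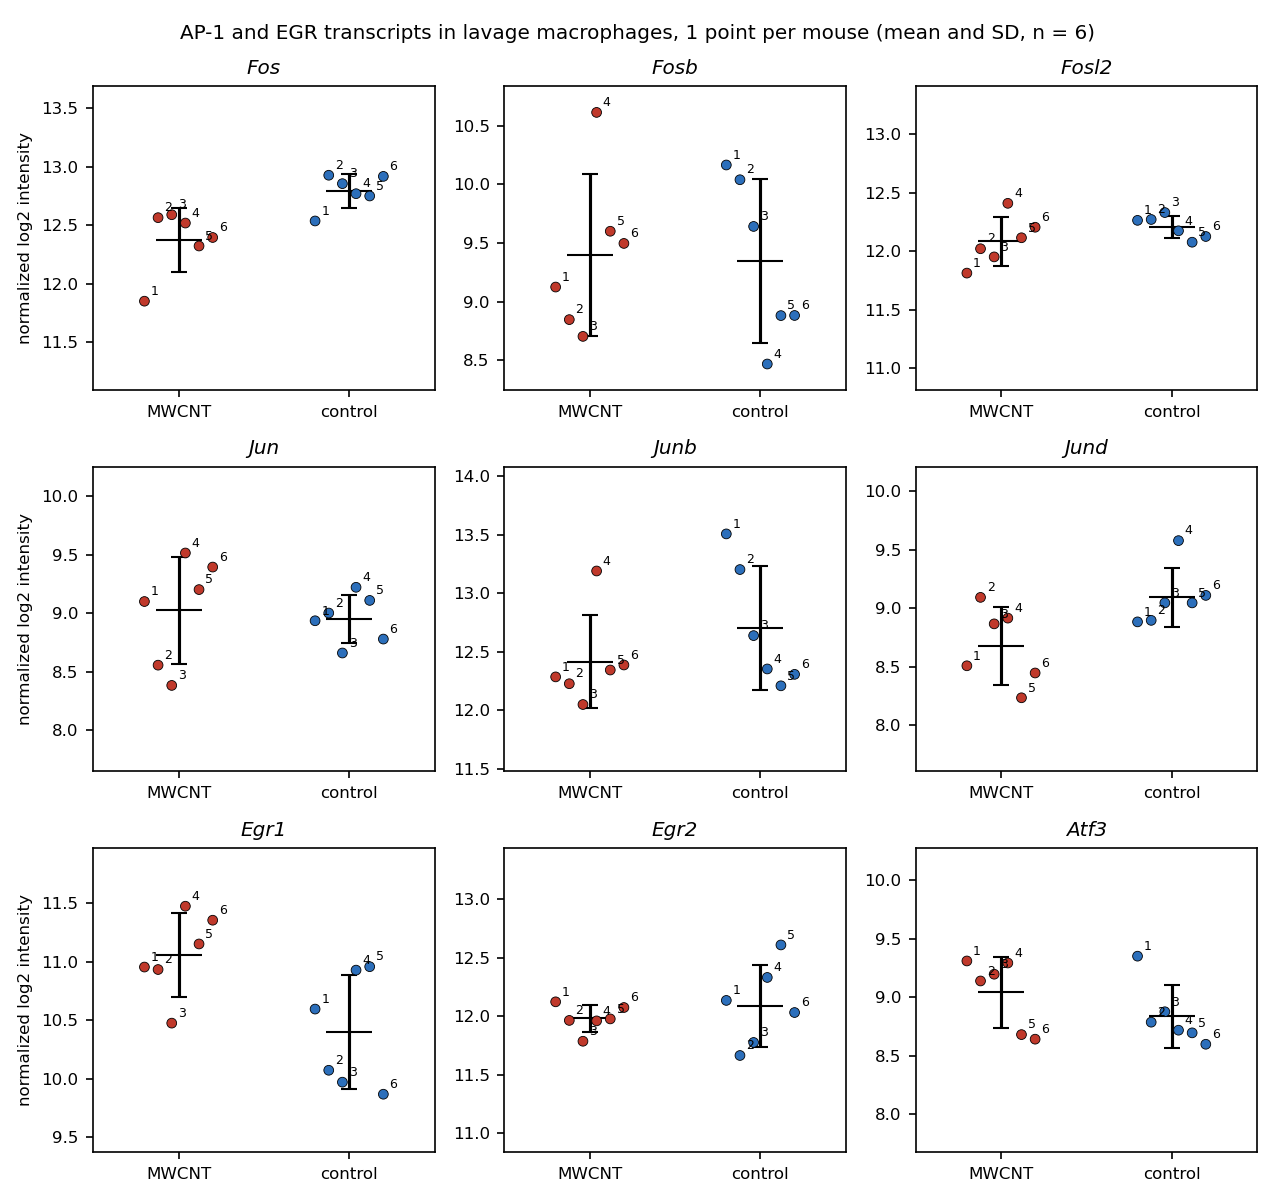
Normalized log2 intensity of the 9 genes on each array. Each point is 1 mouse, numbered as in the labels, MWCNT in red and control in blue, with mean and SD bars (n = 6), and every panel spans the same number of log2 units. MWCNT and control points overlap in all 9 panels.

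Fos, the prototype partner of the JUN proteins, was the only member called. Its level was 11.85, 12.46 and 12.59 (lowest, median and highest of 6) on MWCNT arrays, against 12.54, 12.81 and 12.93 on control arrays. The groups overlapped: 4 of 6 MWCNT arrays lay below every control array, and MWCNT array 1 lay apart from the rest at the low end. Fos fell by 0.42 ± 0.12 on the log2 scale (95% interval -0.68 to -0.16, limma adjusted p = 0.0361), that is, to 0.748 of the control level. Without MWCNT array 1 the difference was -0.31 (adjusted p = 0.0396). Leaving out a single array ended the call in 7 cases, namely MWCNT array 5 or 6 and control array 2, 3, 4, 5 or 6, with limma adjusted p between 0.0553 and 0.0741. It also ended with median scaling between arrays (-0.38, adjusted p = 0.0572), with no filter on dim probes (adjusted p = 0.0559) and without both arrays with Y-linked signal (-0.41, adjusted p = 0.0926). The direction was kept under all 26 alternatives, between -0.58 and -0.31. The part of the raised markers of other cells, and of the lower summed resident markers, in the Fos level was not tested.

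The other FOS family members did not pass the test. Fosb, whose protein like FOS accumulates briefly after stimulation, was at 8.70, 9.31 and 10.62 (lowest, median and highest) on MWCNT arrays and 8.47, 9.26 and 10.17 on control arrays. MWCNT array 4 and control arrays 1 and 2 were the high ones, and the groups overlapped. The difference was 0.05 ± 0.35 (95% interval -0.70 to 0.80, adjusted p = 0.947). Fosl2, which encodes the slower FRA-2 protein, was at 11.81, 12.07 and 12.41 on MWCNT arrays and 12.08, 12.22 and 12.33 on control arrays. It differed by -0.12 ± 0.10 (95% interval -0.33 to 0.08, adjusted p = 0.449).

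Among the JUN genes none was called. Jun, which encodes the prototype activator of this family, was at 8.38, 9.15 and 9.52 (lowest, median and highest) on MWCNT arrays and 8.66, 8.97 and 9.22 on control arrays. MWCNT arrays stood both above and below all the controls, 2 on each side, and the difference was 0.07 ± 0.18 (adjusted p = 0.842). Junb, which can restrain JUN at growth genes, was at 12.05, 12.32 and 13.19 on MWCNT arrays and 12.21, 12.50 and 13.51 on control arrays. Its difference was -0.29 ± 0.24 (95% interval -0.80 to 0.23, adjusted p = 0.477), with MWCNT array 4 and control arrays 1 and 2 high, as for Fosb.

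Jund, the JUN gene that is held at a steady level in most resting cells, was at 8.24, 8.69 and 9.09 on MWCNT arrays and 8.88, 9.05 and 9.58 on control arrays. On 4 of 6 MWCNT arrays it lay below every control array. It differed by -0.42 ± 0.15 (95% interval -0.75 to -0.08), but with adjusted p = 0.0962 it was not called. MWCNT arrays 5 and 6, those with Y-linked signal, had the lowest Jund levels, 8.24 and 8.45, and without both the difference was -0.25 ± 0.15 (adjusted p = 0.332). With median scaling it was -0.25 ± 0.17 (adjusted p = 0.373).

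Atf3, a stress-induced member that restrains inflammatory genes in macrophages, was at 8.64, 9.17 and 9.31 on MWCNT arrays and 8.60, 8.75 and 9.35 on control arrays. The difference was 0.21 ± 0.15 (adjusted p = 0.414). Within the MWCNT group, arrays 1 to 4 lay between 9.14 and 9.31, and arrays 5 and 6 at 8.68 and 8.64. All MWCNT arrays, 1 to 6, lay inside the range of the controls. Without arrays 5 and 6 the difference was 0.40 ± 0.13 (adjusted p = 0.0747), which still did not pass. Median scaling gave 0.36 ± 0.19 (adjusted p = 0.232), and leaving out control array 1 gave 0.31 ± 0.13 (adjusted p = 0.152).

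**Figure D2:**
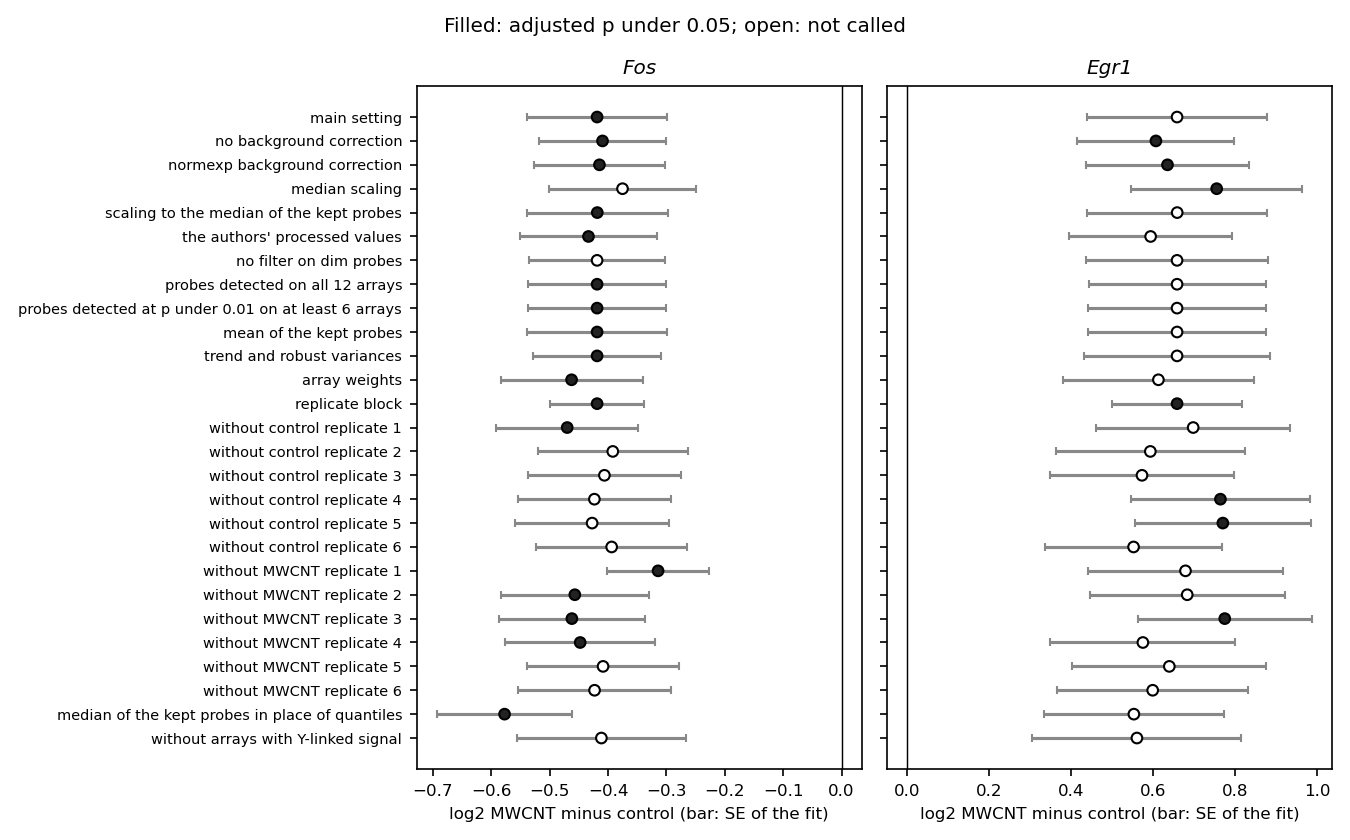
Log2 difference between MWCNT and control arrays for Fos (left) and Egr1 (right) in the main setting and 26 alternatives. Bars are the SE of the fit, filled points have an adjusted p under 0.05. Fos stays between -0.58 and -0.31 and Egr1 between 0.55 and 0.77, while both cross the threshold from setting to setting.

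Among the EGR genes neither was called. Egr1, which is induced by growth factors, adhesion and phagocytosis, was at 10.47, 11.05 and 11.47 (lowest, median and highest) on MWCNT arrays, against 9.87, 10.33 and 10.96 on control arrays. The groups overlapped, with 3 of 6 MWCNT arrays above every control array. Its difference was 0.66 ± 0.22 (95% interval 0.19 to 1.13), with adjusted p = 0.0646, so Egr1 was not called. It was called without background correction (0.61, adjusted p = 0.0492), with normexp correction (0.63, 0.0449), with median scaling (0.76, 0.0236), and without control array 4, control array 5 or MWCNT array 3 (adjusted p = 0.0433, 0.0371 and 0.0352). Without the arrays with Y-linked signal it differed by 0.56 ± 0.25 (adjusted p = 0.197).

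Egr2, which encodes a relative that binds the same kind of site, was at 11.79, 11.97 and 12.12 on MWCNT arrays and 11.67, 12.08 and 12.61 on control arrays, and differed by -0.11 ± 0.14 (95% interval -0.41 to 0.19, adjusted p = 0.662). All 6 MWCNT arrays lay inside the range of the controls, and the SD was 0.12 on MWCNT arrays and 0.35 on control arrays (n = 6 each).

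A difference between genes within an array removes a shift common to all its probes. Egr1 minus Egr2 was -0.93 ± 0.30 on MWCNT arrays and -1.70 ± 0.27 on control arrays (SD, n = 6 each), a shift of 0.77. The lowest MWCNT array, at -1.31, lay above the highest control array, at -1.41. The groups were also apart in the authors' processed values, with a shift of 0.71, and in each of the other 5 alternative scalings, with shifts up to 0.82. Rescaling a whole array cannot change such a difference. Scaling to the kept-probe median therefore left the shift at 0.77, and both scalings without quantiles gave the same 0.82. The alternative scalings are thus not independent support. Egr1 minus Jun did not overlap either, at 1.85 to 2.37 on MWCNT arrays and 1.07 to 1.85 on control arrays, where the gap is under 0.01. These are 2 of the 36 pairs of members and were picked after seeing the values, so no test is given. Of all other features 1.36% gave a within-array difference to Jun, 2.48% one to Egr2 and 3.13% one to Egr1 that did not overlap between groups.

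Egr3, the third gene of the family, was in the list of EGR relatives and not among the 9. It was at 6.31, 6.98 and 7.95 (lowest, median and highest) on MWCNT arrays, against 4.88, 5.14 and 5.68 on control arrays, with no overlap. It rose by 1.90 ± 0.24 (adjusted p = 0.000206) but was detected on 1 control array only. The size of the rise depended on the processing: 0.71 without background correction, 1.11 with normexp and 0.41 in the authors' processed values, each still called. It depended on the probe as well. With the mean of its kept probes the rise was 0.97, also called, so at least 1 other kept probe of Egr3 differed by less than the brightest. Egr3 is known to be strongly induced through the T cell receptor. Beside it, 7 of the 9 measured T and NK cell markers were raised. Their summed intensity was 7680 to 11449 on MWCNT arrays and 7076 to 8616 on control arrays. Most of that sum came from Cd2, which was not called (-0.16 ± 0.07, limma adjusted p = 0.130), so it says little about the other markers. Cd3e, a chain of that receptor complex, was raised by 2.49 ± 0.27 (adjusted p = 7.29e-05, and by 0.65 in the authors' processed values), with 1 control array detecting it. The part of T cells in the Egr3 level was not tested. Nab1, which encodes a corepressor that binds EGR proteins, differed by -0.13 ± 0.10 (adjusted p = 0.425).

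**Figure D3:**
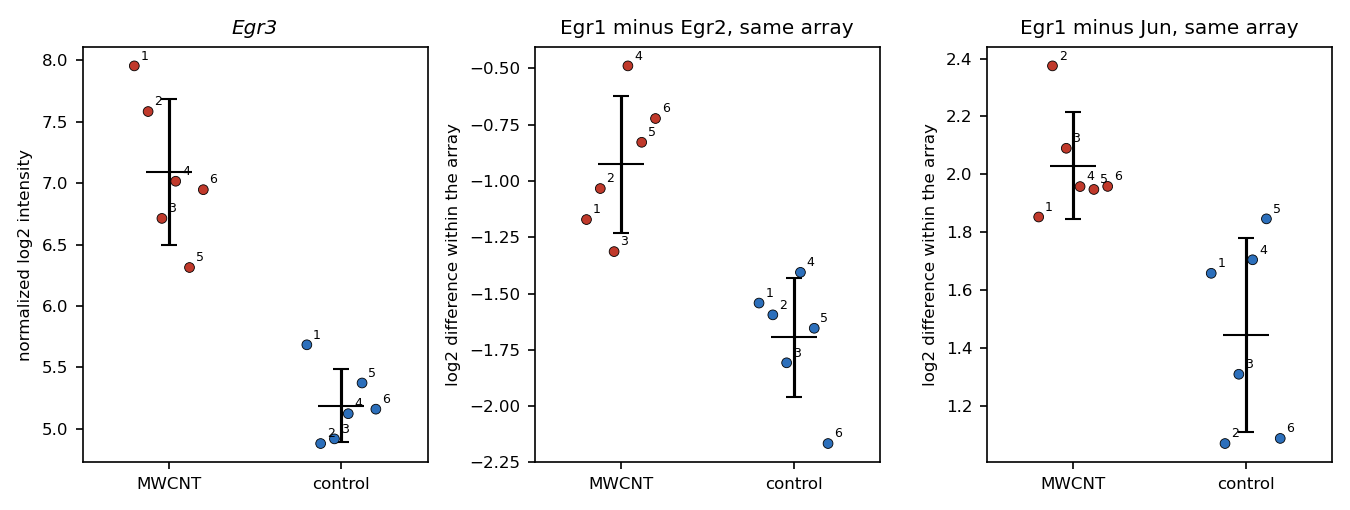
Left, normalized log2 intensity of Egr3; middle and right, the within-array log2 differences Egr1 minus Egr2 and Egr1 minus Jun. Each point is 1 mouse with its number, MWCNT in red and control in blue, with mean and SD bars (n = 6). The groups do not overlap in any panel, and in the right panel the gap is under 0.01.

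The members differed widely in their spread between mice of the same group. The SD within groups was 0.70 for Fosb, and 0.621% of the 13210 features had a larger one. It was 0.47 for Junb (2.98% larger), 0.43 for Egr1 (4.17%) and 0.35 for Jun (9.21%). It was 0.22 for Fos (40.7% larger) and 0.16 for Fosl2 (63.2%).

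Some pairs of members deviated together. After the group means were subtracted, Fosb and Junb had Pearson's r = 0.92 and Spearman's rho = 0.86 over 12 arrays (permutation p within groups 0.00014 and 0.00169, adjusted p = 0.00324 and 0.0304 over the 36 pairs of members). Only 1 of all features had a higher r with Fosb than Junb did. The r was 0.96 among MWCNT arrays and 0.92 among control arrays, and 0.86 without the 2 arrays farthest from the Fosb median. MWCNT array 4 was 1.22 above its group mean for Fosb and 0.78 for Junb, and control array 1 was 0.82 and 0.80 above. Fosl2 and Fosb had r = 0.77 and rho = 0.72 (permutation adjusted p = 0.0467 and 0.0760), which passed on r alone, and r was 0.62 without the 2 farthest arrays. Fosl2 and Junb had r = 0.68 and rho = 0.77 (permutation adjusted p = 0.0690 and 0.0325), which passed on rho alone, and r was 0.64 without the 2 farthest arrays.

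A second pair was Jun and Egr1, with r = 0.78 and rho = 0.80 over 12 arrays (permutation p = 0.00018 and 0.0002, adjusted p = 0.00324 and 0.00720). It was 0.93 among MWCNT arrays and 0.84 among control arrays, and 0.79 without the 2 farthest arrays. Egr1 and Egr2 had r = 0.76 and rho = 0.79 (permutation adjusted p = 0.0780 and 0.0760), which did not pass. Fosb and Egr1 had r = 0.13 and rho = 0.06 over all 12 arrays (permutation adjusted p = 0.877 and 0.908), with 0.86 among MWCNT arrays and -0.39 among control arrays. Control arrays 4 and 5, which were 0.53 and 0.56 above their group mean for Egr1, were 0.88 and 0.47 below it for Fosb. No slide or collection day is stated for these arrays, so their part in these patterns was not tested.

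**Figure D4:**
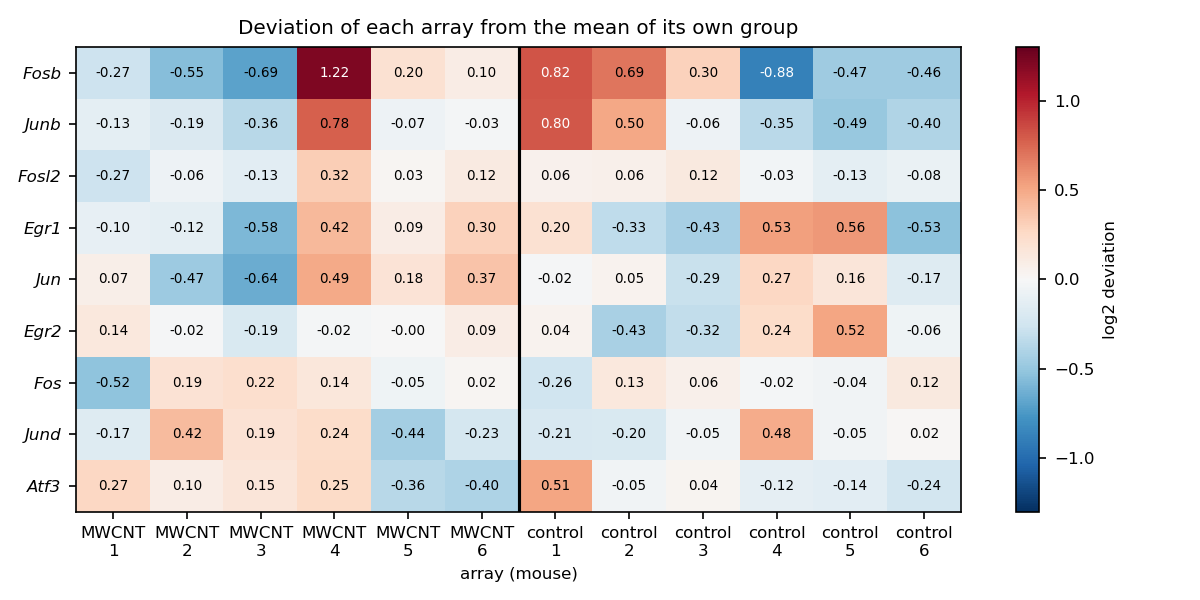
Log2 deviation of each array (columns) from the mean of its own group for the 9 genes (rows), red above and blue below, with the value in each cell. Fosb and Junb are both high on MWCNT array 4 and control arrays 1 and 2, while Egr1, Jun and Egr2 are all high on control arrays 4 and 5.

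Outside the 9 genes, the named genes with the pattern most like the mean of the members, by Pearson's r of the deviations over the 12 arrays, were Csrnp1 (0.90), Zfp36 (0.90), Amn (0.89), Lmnb2 (0.88) and Gse1 (0.86). They were picked as the highest of all named genes, so these values are descriptions. The mean was taken over unscaled deviations, so members with a wide spread, such as Fosb and Junb, weigh most in it. It is not a pattern shared by all 9 genes. Zfp36 encodes tristetraprolin, which speeds decay of cytokine transcripts, and Csrnp1 is itself a gene induced by stimulation. Csrnp1 was 0.92 above its group mean on MWCNT array 4 and 0.64 and 0.53 above on control arrays 1 and 2, the arrays that were high for Fosb and Junb. Most like Egr1 were Pim1 (0.91), Snai1 (0.88), Cnot2 (0.88), Chordc1 (0.87) and Uhrf2 (0.85). Most like Egr2 were Tnf (0.88), Id1 (0.86), Iqca (0.84), Reep5 (0.83) and Prpf38b (0.83). None of these 15 genes was called by limma between the groups (adjusted p from 0.0636 to 0.997).

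Of 14 measured MAP kinases and activators, which lie upstream of AP-1 and EGR, none was called in limma's test (median 0.00). Over all features 6.98% were raised and 5.89% lowered, and the small counts of this and the next lists stand beside those shares. At an unadjusted p under 0.05, 1 of the kinase and activator genes was higher and 2 were lower. With array weights 2 were lowered and with median scaling 2 were raised. In 9 of 26 alternatives 1 or 2 were lowered, among them fits with 1 array left out. Map2k3, a kinase that activates p38, differed by -0.00 ± 0.07 (adjusted p = 0.980). Of 5 measured genes of serum response factor and its partners 1 fell: Mrtfa, an actin-sensing coactivator of serum response factor, fell by 0.60 ± 0.14 (adjusted p = 0.0133), which median scaling changed to -0.36 (adjusted p = 0.155). Srf itself differed by 0.09 ± 0.09 (adjusted p = 0.607). Of 12 other leucine zipper partners 1 was called: Creb5 fell by 0.34 ± 0.10 (adjusted p = 0.0374), and that call ended in 9 of 26 alternatives, median scaling among them (-0.18, adjusted p = 0.296).

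Of 11 measured MAP kinase phosphatases and Sprouty-type inhibitors 4 rose and none fell in limma's test, beside 6.98% raised and 5.89% lowered over all features. Their median was 0.09, and 4 were higher and 1 lower at an unadjusted p under 0.05. Dusp4, a nuclear phosphatase of ERK and JNK, was detected on no control array and on 5 MWCNT arrays, and its MWCNT level was higher by at least 2.27-fold in the main setting (limma adjusted p = 0.000687). It passed the filter on dim probes through the MWCNT arrays alone, so the count of 4 is partly set by the filter. With only probes detected on all 12 arrays, 2 genes of this list were raised. In the authors' processed values the log2 difference of Dusp4 was 0.39 (adjusted p = 0.00693). Dusp2, a phosphatase abundant in activated lymphocytes, rose by 1.47 ± 0.29 (adjusted p = 0.00438; 0.32 in the authors' values), with 3 control arrays detecting it. Spred1, an inhibitor of RAF activation, rose by 0.57 ± 0.10 (adjusted p = 0.00245). Dusp3 rose by 0.25 ± 0.07 (adjusted p = 0.0244), but with its probes averaged the difference was 0.00 (adjusted p = 0.998). Dusp1, itself an immediate early gene, differed by -0.13 ± 0.19 (adjusted p = 0.712). Beside Dusp4 and Dusp2 stand the raised T cell markers given above, whose part was not tested.

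Among 29 other immediate early genes that were measured, limma called 3 raised and 2 lowered, with a median of -0.02. The share called either way over all features was 12.9%. Zfp36l1, a relative of Zfp36, rose by 0.53 ± 0.10 (adjusted p = 0.00363), Socs3, an inhibitor of cytokine signalling, by 0.69 ± 0.17 (adjusted p = 0.0180) and Plk2, a stress-response kinase, by 0.53 ± 0.15 (adjusted p = 0.0335). The Plk2 call was lost in 13 of 25 alternatives, with differences from 0.10 to 0.74. Klf4, a zinc finger factor of monocyte differentiation, fell by 0.37 ± 0.08 (adjusted p = 0.00743), and Ier2 fell by 0.91 ± 0.28 (adjusted p = 0.0435). The Ier2 call was lost in 15 of 25 alternatives, with differences from -1.09 to -0.22, and the Klf4 call in 1 of 26, median scaling (-0.28, adjusted p = 0.118). Of 10 heat shock genes, which encode chaperones induced by stress, 1 rose in limma's test, beside 6.98% raised over all features. That gene, Hspd1, a mitochondrial chaperonin, rose by 0.22 ± 0.07 (adjusted p = 0.0417), a call lost in 14 of 26 alternatives. The inducible Hspa1a and Hspa1b were not called, and Hspa8 differed by 0.01 ± 0.09 (adjusted p = 0.951).

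Of 20 measured genes known to have AP-1 or EGR sites in their promoters, 9 rose and 1 fell, with a median of 0.43 (0.37 with genes below background at their bound), beside 6.98% raised over all features. No control array detected 3 of the 20, which passed the filter through the MWCNT arrays. This list was chosen with earlier results known, so its count does not stand as independent support. Mmp12, the macrophage elastase, rose by 3.30 ± 0.22 (adjusted p = 3.72e-06), Ccnd1, the G1 cyclin, by 1.65 ± 0.19 (adjusted p = 0.000116), Ccl4, a chemokine, by 1.94 ± 0.26 (adjusted p = 0.000343) and Mmp14, a membrane-bound protease, by 1.94 ± 0.28 (adjusted p = 0.000557). The adhesion receptor Cd44 differed by -0.05 ± 0.06 (adjusted p = 0.699). Tgfb1, a cytokine gene, fell by 0.35 ± 0.08 (adjusted p = 0.0135), a call lost with median scaling (adjusted p = 0.151) and when the arrays that had Y-linked signal were left out (adjusted p = 0.0591). Mmp12, Mmp14 and Ccl4 are also expressed by recruited macrophages, whose markers were raised on these arrays, and their part was not tested.

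**Figure D5:**
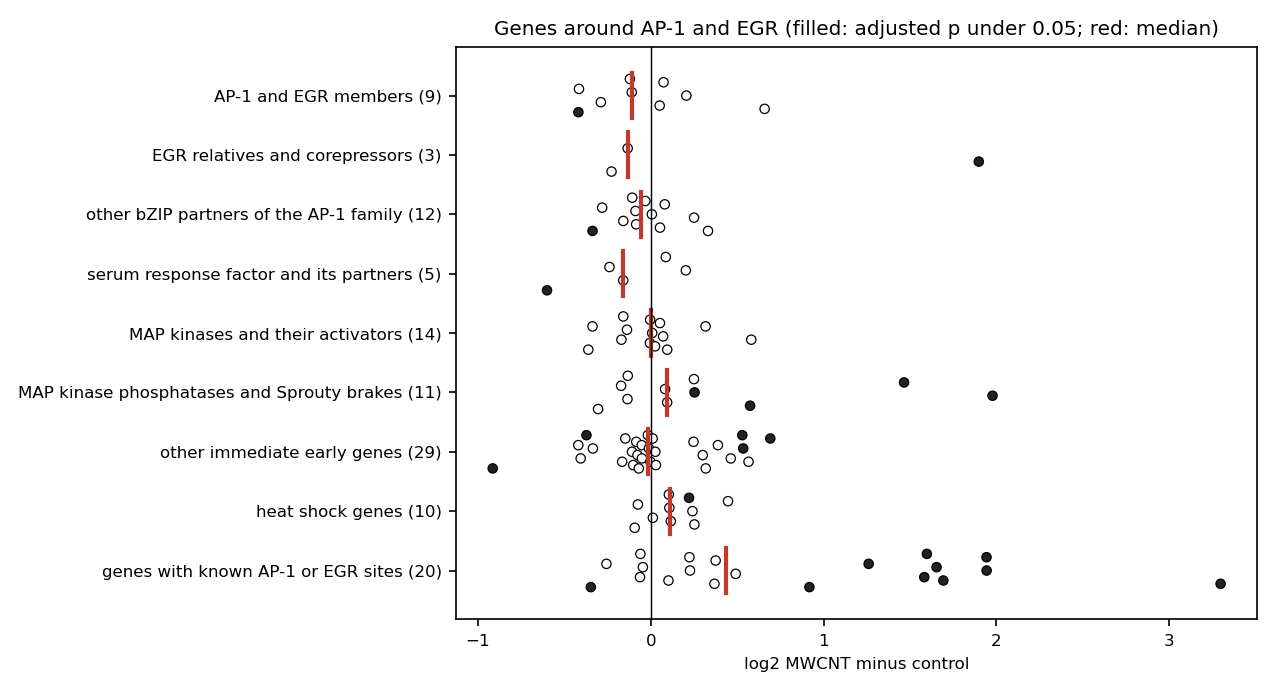
Log2 difference between MWCNT and control arrays for each measured gene of the members and of 8 surrounding lists, with the number measured in parentheses. Filled points have an adjusted p under 0.05 and red bars are medians. In limma's test 1 of 9 members is lowered, and 9 of 20 genes with known AP-1 or EGR sites are raised.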

How the data were processed

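Per the file headers, the deposited scanner table gives 1 intensity and 1 detection p-value per probe and array. The deposited intensity values are linear and described by the authors as non-normalized. The authors' processed intensity matrix comes from lumi according to the authors (per the submitters' processing notes, without version or settings), and served as an alternative on the log2 scale. Background was corrected by neqc (limma 3.58.1, with statmod 1.5.0, in R 4.3.3) using the detection p-values and an offset of 16, followed by quantile normalization. Probes with a detection p under 0.05 on at least 3 of 12 arrays were kept (19291), and each gene was represented by its brightest kept probe, giving 13210 features. Groups were compared by lmFit and eBayes, two-sided, without covariates. Correlations used 100000 permutations within groups. Where no array of a group detected a gene, its fold is a bound against the lowest detected signal. Gene symbols came from the platform annotation; 217 of 238 listed genes were on the array, 5 through an older symbol. Named genes are all members, from each list up to 4 called genes by smallest adjusted p plus its brightest uncalled gene, and the 5 genes most like the members' mean, Egr1 and Egr2, leaving out Rik, Gm, LOC and clone-type symbols. Ier2, Hspa1a, Hspa1b, Tgfb1 and the member pairs singled out were chosen after their values were seen. The members and lists were chosen with earlier results of these data known. The number of arrays, 6 per group, limits precision. The fit was tested on simulated data with known changes. Alternatives varied background correction, scaling, probe filter, probe rule, variance model, array weights, replicate block and the arrays included. Figures were drawn with matplotlib 3.10.9 in Python 3.11.15.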

Additional observations from a re-analysis of the deposited data

Results flagged for a closer look

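In 4 of 18 sets of 6 arrays, 1 member's highest or lowest array stood apart from the others by more than Dixon's 95% limit on the gap over the range, which chance gives in about 1 in 20 sets. Fos was at 11.85 on MWCNT array 1, with the next array at 12.32. Junb was at 13.19 on MWCNT array 4, with the next at 12.39. Jund was at 9.579 on control array 4, with the next at 9.111. Atf3 was at 9.35 on control array 1, with the next at 8.875. No array was flagged for 2 genes.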

How the results depend on the processing

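The 9 members gave 1 raised gene in place of none without background correction, with normexp, with median scaling and with the replicate block, and 0 to 1 when 1 array was left out; that gene was Egr1 each time. They gave 0 lowered genes in place of 1 with median scaling, with no filter on dim probes and without the arrays with Y-linked signal, and 0 to 1 when 1 array was left out; the gene was Fos. At the level of single probes 1 member probe was called, and 0 with no filter. With the block Egr1 was at 0.66 (adjusted p = 0.0327) and no other member's call changed. Deviations of same-numbered arrays correlated between -0.18 and 0.15, and the labels state no link between arrays of the same number. No member changed sign past the threshold in any of 26 alternatives. Over all features 922 were raised and 778 lowered, 1688 and 214 with median scaling, which moved the median of all features to 0.10, and 540 raised with probes detected on all 12 arrays. Equalizing the kept-probe medians without quantiles, an alternative chosen after seeing the data, moved the median to -0.10, lowered 1861 features and left Fos at -0.58 (adjusted p = 0.00419). The cause of these shifts was not tested. Phosphatase and Sprouty genes gave 4 raised, and 2 with probes detected on all 12 arrays, and genes with AP-1 or EGR sites 9 and 5, since fewer genes are then tested. A slide block was not run, as no slide is named.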

Other observations

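Egr2 and Tnf, the cytokine gene with the deviations most like those of Egr2 over the 12 arrays (r = 0.88, rho = 0.84), had SDs of 0.12 and 0.10 on MWCNT arrays and 0.35 and 0.84 on control arrays. Tnf lay between 9.83 and 10.10 on MWCNT arrays and between 9.10 and 11.16 on control arrays, and Egr2 between 11.79 and 12.12 on MWCNT arrays and between 11.67 and 12.61 on control arrays. Control arrays 4 and 5 were the highest and control arrays 2 and 3 the lowest of all 12 for both genes. The pair was picked as the highest correlation, and the difference in spread was not tested.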
